A study of Homo sapiens with 2 samples.

Results

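Among the places where Flag-RBM47 was crosslinked to RNA, 5968 clusters of 233546 lay in introns of genes for which every listed cluster was intronic. These genes numbered 760 of the 7712 genes with a cluster, or 9.85%. The number depends on what is listed. It was 347 genes with 1396 clusters when only listed clusters with at least 5 tags in replicate 1 were kept. With clusters of at least 10 tags in total it was 461 genes, of which 228 were shared. The members were chosen by their deposited location labels alone. A cluster was taken when its label was exactly "intron", it carried an Entrez gene ID, and no cluster with that ID had any other label. The remaining 3417 genes with an intron cluster also had clusters elsewhere, and their 89701 intron clusters served as the comparison. The data came from a single group of 2 HITS-CLIP replicates of MDA231-BrM2a, a non-clonal breast cancer line of brain metastatic cells derived from MDA-MB-231. Both replicates carried wild-type RBM47 with a Flag tag, switched on by doxycycline, were given 1 ng/ml doxycycline for 3 days, and were then irradiated with ultraviolet light. Nothing in the labels says that the replicates came from separate cultures. No control library was analysed here, so the level of clusters without RBM47 was not measured.

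RBM47 is an RNA-binding protein with RNA recognition motifs. HITS-CLIP sequences the short RNA fragments that ultraviolet light has joined to a protein. Each unique fragment is called a tag, and overlapping tags form a cluster. Introns are transcribed with the gene and cut out in the nucleus, so a tag in an intron comes from a precursor RNA, from an excised intron, or from a small RNA that is made from the intron. Many microRNAs and most small nucleolar RNAs are encoded in introns of longer host transcripts. The number of tags on an RNA depends on how much of it the cells hold and on how often it is bound, and these cannot be told apart here.

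The replicate columns summed to 999047 tags in replicate 1 and 3489697 tags in replicate 2. No listed cluster had fewer than 5 tags in total, and none lacked a tag in either replicate, so weaker sites are not seen. The mesenchymal markers of MDA-MB-231 cells were present, with 3345 tags on VIM, 8676 on CD44, 2363 on CAV1 and 3265 on AXL. Of 5 luminal and epithelial markers, EPCAM held 11 tags, and ESR1, PGR, GATA3 and CDH1 had no listed cluster. The member clusters held 12108 tags of replicate 1 and 35130 tags of replicate 2, which was 1.21% and 1.01% of all tags in the table (1.11% ± 0.145, SD, n = 2). Of the tags in intron clusters with a gene ID they held 5.10% and 4.70% (4.90% ± 0.280, SD, n = 2).

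Among the microRNA genes of the class, 5 had a single cluster of 22 to 27 nt. The mature sequences of both arms of their hairpins are shown because a cluster of that length is close to that of a mature microRNA, which was 21 to 23 nt for these 10 arms. The sequences are from RefSeq on GRCh38.p14. The capitals mark the seed, bases 2 to 8, through which a microRNA pairs with its targets. Which arm a cluster covered was not determined, since the clusters are on another genome build, hg18.
hsa-miR-503-5p: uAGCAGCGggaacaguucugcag
hsa-miR-503-3p: gGGGUAUUguuuccgcugccagg
hsa-miR-454-5p: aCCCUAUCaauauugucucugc
hsa-miR-454-3p: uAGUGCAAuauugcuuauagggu
hsa-miR-374b-5p: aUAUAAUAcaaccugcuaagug
hsa-miR-374b-3p: cUUAGCAGguuguauuaucauu
hsa-miR-455-5p: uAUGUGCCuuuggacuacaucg
hsa-miR-455-3p: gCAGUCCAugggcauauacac
hsa-miR-193b-5p: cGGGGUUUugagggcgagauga
hsa-miR-193b-3p: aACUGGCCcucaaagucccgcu

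The 10 seeds were all different, so no pair of these arms falls into 1 seed family. MIR503, a microRNA gene of the X chromosome, had 4 tags in replicate 1 and 120 in replicate 2 on a cluster of 27 nt. MIR454 had 2 and 41 tags on 27 nt, between intron clusters of its host SKA2. MIR374B had 7 and 24 tags on 23 nt, between clusters of FTX, a noncoding RNA of the X inactivation centre. The other pair were thinly covered, with 1 and 7 tags on the 24 nt of MIR455 and 1 and 4 tags on the 22 nt of MIR193B. Replicate 2 held the larger count at each of the 5 loci, as it did in the table as a whole.

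Most of the genes were touched at very few places. The median was 2 intron clusters per gene with an interquartile range of 1 to 5, against a median of 6 and a range of 2 to 21 in genes also bound elsewhere. A single cluster was all that 343 of the 760 genes (45.1%) had, against a single intron cluster in 638 of the 3417 others (18.7%). A gene with 1 cluster meets the rule with a single intron label. Of all genes with 1 listed cluster 27.3% were bound only in introns, of those with 2 to 5 clusters 14.4%, of those with 6 to 20 clusters 4.34%, of those with 21 to 50 clusters 1.80%, of those with 51 to 100 clusters 4.17% and of those with 101 to 200 clusters 1.16%. Above 200 clusters, 2 genes of 92 were, FHIT and SMYD3. The median gene of the class held 12 tags, against 43 intron tags in genes also bound elsewhere, and 79 genes held more than 100.

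**Figure D1:**
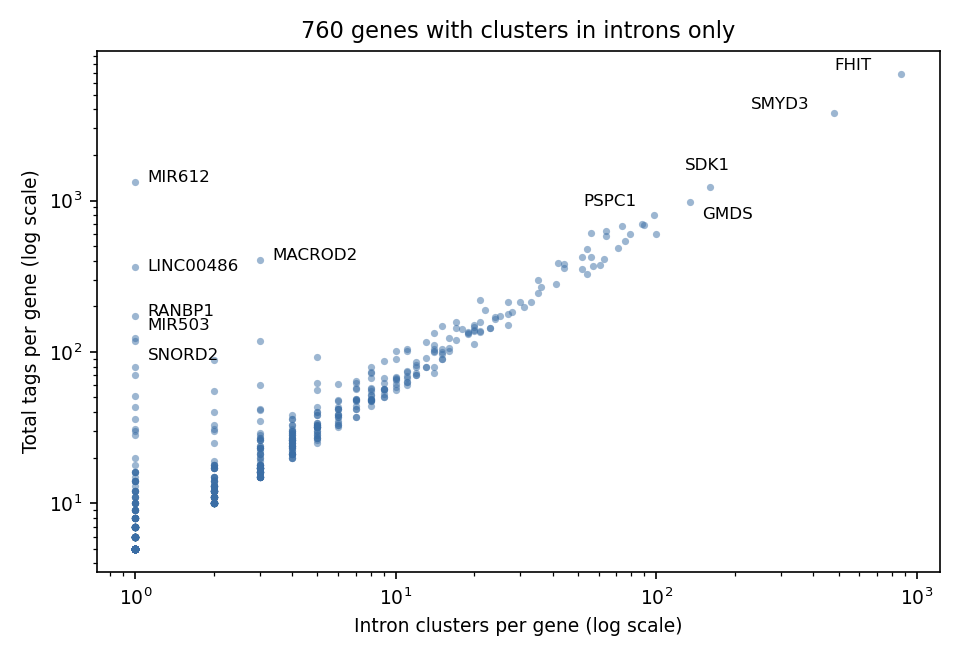
Intron clusters per gene (x axis, log scale) and total tags per gene (y axis, log scale) for the 760 genes with clusters in introns only, 1 point per gene. FHIT, with 872 clusters and 6807 tags, and SMYD3, with 480 clusters and 3778 tags, stand at the upper right, while MIR612, LINC00486 and MACROD2 hold many tags on 1 to 3 clusters.

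FHIT and SMYD3 carried 1352 of the 5968 clusters (22.7%). FHIT, which encodes a dinucleoside triphosphate hydrolase and spans the common fragile site FRA3B, had 872 clusters with 1765 tags in replicate 1 and 5125 in replicate 2. That was 1.62 ± 0.211 tags per 1000 tags of the table (SD, n = 2), and 14.6% of the total tags of the class. By number of intron clusters FHIT ranked 5 among all genes in the table. SMYD3, a lysine methyltransferase, had 480 clusters with 899 and 2926 tags, or 0.869 ± 0.0434 per 1000 tags (SD, n = 2), and ranked 18. Both were bound broadly rather than deeply. The median cluster held 7 tags in each, and the largest held 35 tags in FHIT and 54 in SMYD3.

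The 10 genes with most tags held 37.7% of the tags of the class, 37.4% ± 1.07 over the replicates (SD, n = 2), and 22 genes held 50%. SDK1, a neuronal adhesion molecule, had 161 clusters with 311 and 946 tags in replicates 1 and 2. GMDS, an enzyme of GDP-fucose synthesis, had 134 clusters with 274 and 712 tags. IMMP2L, a subunit of the mitochondrial inner membrane peptidase, had 100 clusters with 167 and 442 tags. These were long genes, less densely covered than FHIT and SMYD3 but above the class median of 2.96 clusters per 100 kb of gene. SDK1 had 16.6 clusters per 100 kb, GMDS 21.6 and IMMP2L 11.1, with gene lengths from GENCODE on GRCh37. FHIT had 58.0 and SMYD3 63.3 clusters per 100 kb.

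The densest of the genes with most tags were shorter. LOC729987, a noncoding locus now named LINC01776, had 64 clusters with 135 and 452 tags, or 103 clusters per 100 kb. PSPC1, a paraspeckle protein, had 98 clusters with 209 and 605 tags and 90.5 per 100 kb. FANCL, the ubiquitin ligase of the Fanconi anaemia pathway, had 74 clusters with 169 and 523 tags and 90.1 per 100 kb. RUSC2 followed with 64 clusters, 170 and 471 tags, and 89.2 per 100 kb. PSPC1, FANCL and RUSC2 were close in density, while by tags PSPC1 led and LOC729987 came last of these 4. GPR39, a zinc-sensing receptor, had 88 clusters with 181 and 538 tags at 38.3 per 100 kb. ELP4, an Elongator subunit, had 90 clusters with 179 and 523 tags at 32.1 per 100 kb, and MIR4500HG, a microRNA host gene, had 79 with 160 and 453 tags at 32.0. SHFM1, now named SEM1 and part of the proteasome lid, had 56 clusters with 124 and 495 tags, all within 20.5 kb. RANBP17, a nuclear transport receptor, had 76 clusters with 122 and 428 tags at 17.3 per 100 kb.

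Genes with at least 50 intron clusters were few in the class, 23 against 426 among genes also bound elsewhere, and held 2956 of its clusters (49.5%). Those of the 23 that matched GENCODE, 22 genes, had a median of 30.7 clusters per 100 kb and ranged from 5.93 for RAD51B to 103. The 420 matched genes of the other kind had a median of 60.4. Such heavily covered genes usually had many clusters outside introns, with a median of 19 and a maximum of 119, and 19 of them had only 1. Across all matched genes the median density was 2.96 clusters per 100 kb against 9.35, at similar median gene lengths of 82.3 and 80.2 kb. Gene length was only loosely related to cluster number across the member genes, with a Spearman correlation of 0.248 over 702 genes, which are not independent replicates. Neighbouring clusters of the same gene were a median of 535 nt apart, against 250 nt for the other intron clusters.

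Clusters were not spread evenly along the 4 protein-coding genes with most tags. When the covered stretch was divided into 3 equal parts from its 5′ end, FHIT had 258, 436 and 178 clusters, with 2053, 3505 and 1249 tags. SMYD3 had 171, 290 and 19 clusters. SDK1 had 134, 7 and 20, whereas GMDS had 33, 34 and 67. FHIT and SMYD3 were thus most covered in the middle part, SDK1 in the 5′ part and GMDS in the 3′ part. The longest stretch without a cluster was 119 kb in FHIT, 168 kb in SMYD3, 85.7 kb in SDK1 and 90.3 kb in GMDS. In bins of 50 kb the tags of the replicates rose and fell together, with Spearman correlation between 0.964 and 0.991 over 10 to 28 bins per gene. Those bins come from the same clusters, which needed a tag in both replicates to be listed.

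**Figure D2:**
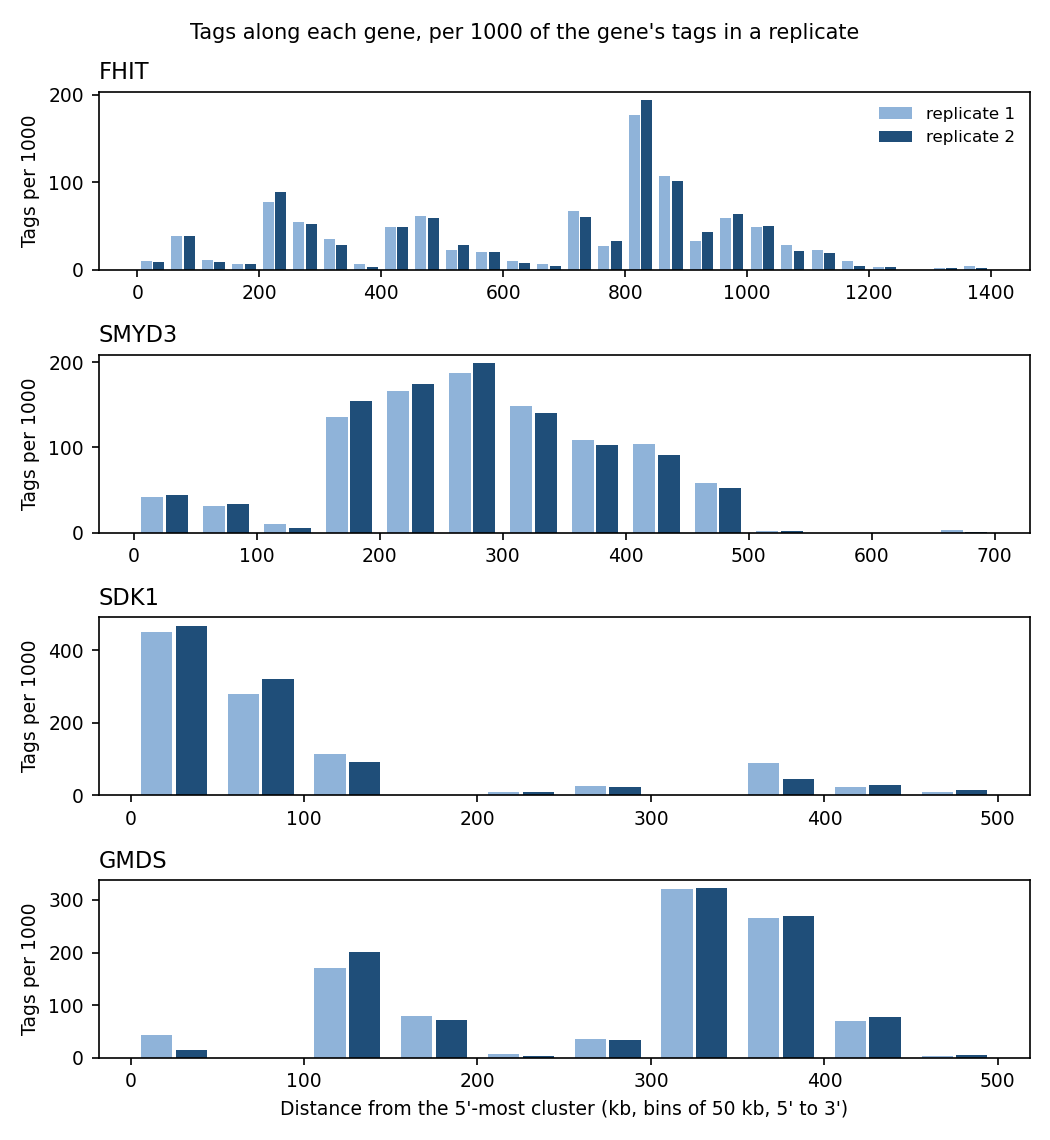
Tags per bin of 50 kb along FHIT, SMYD3, SDK1 and GMDS (y axis, per 1000 tags of the gene in that replicate), by distance in kb from the 5′-most cluster of the gene (x axis), for each replicate. The densest bin of FHIT, with 136 clusters, starts at 800 kb, that of SMYD3, with 81, at 250 kb, that of SDK1, with 68, at 0 kb and that of GMDS, with 40, at 300 kb.

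The clusters of the class were shallower than other intron clusters. The median was 6 tags (10 or more in 16.4%) against 7 (29.3%), and exactly 5 tags, the lowest listed, were held by 36.1% against 26.1%. At least 30 tags were held by 28 clusters (0.469%) against 3213 (3.58%), and at least 100 by 6 (0.101%) against 298 (0.332%). The mean log2 tags per cluster was 0.75 against 0.95 in replicate 1 and 2.30 against 2.60 in replicate 2. The difference was therefore -0.20 and -0.29, or -0.25 ± 0.066 on the log2 scale (SD, n = 2), lower in 2 of 2 replicates. An exact two-sided sign-flip permutation test gave p = 0.5, the smallest that 2 replicates allow. Among genes with 1 to 5 intron clusters the difference turned to 0.058, with medians of 6 and 6 tags in 1106 member and 3706 other clusters. Between genes with few clusters the class was thus not the shallower. Member clusters were also slightly shorter, with a median of 74 nt against 78 nt.

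**Figure D3:**
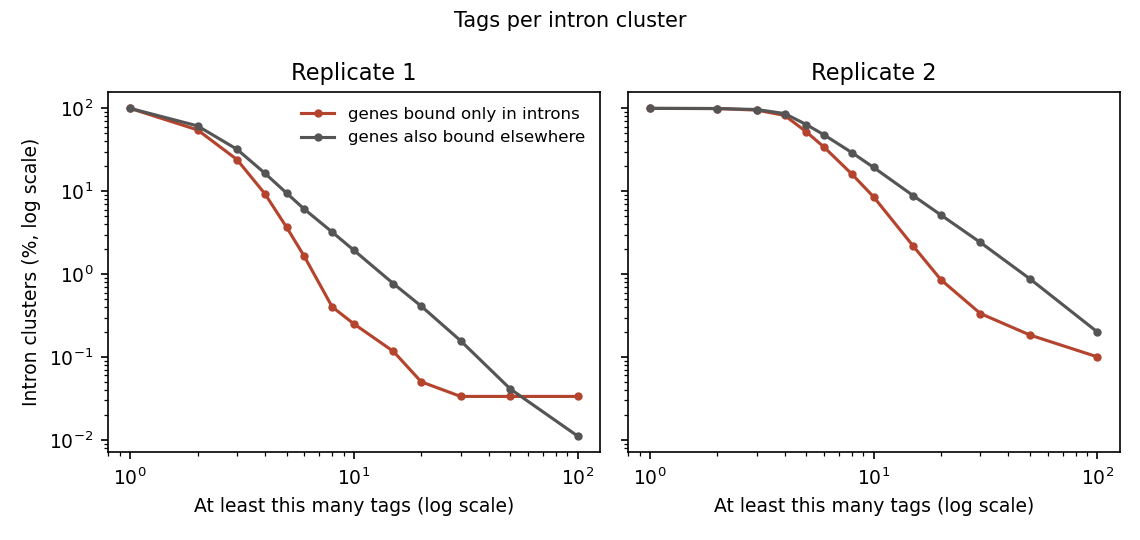
Share of intron clusters (y axis, percent, log scale) with at least a given number of tags in a replicate (x axis, log scale). Each replicate has its own panel, with clusters of genes bound only in introns and other intron clusters as separate lines. At 10 tags the shares are 0.251% and 1.94% in replicate 1, and 8.55% and 19.4% in replicate 2.

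All 6 clusters of at least 100 tags were in genes with 1 to 3 clusters. MIR612 held the largest, 1240 nt on the plus strand at chr11:64968345-64969585 (hg18, coordinates as deposited), with 282 tags in replicate 1 and 1040 in replicate 2. RefSeq places this microRNA gene within NEAT1, the noncoding RNA that builds paraspeckles, and a cluster of 2391 tags without a gene ID lay 26 nt before it. The cluster is many times longer than a microRNA, so its tags are given under the symbol of the deposited table only. MACROD2, an ADP-ribosyl hydrolase gene, held 16 and 380 tags on 23 nt at chr20:14424570-14424593, and 5 tags on each of its other 2 clusters. LINC00486, a noncoding gene, held 127 and 235 tags on 44 nt at chr2:32945671-32945715. RANBP1, a regulator of the RAN GTPase, held 25 and 148 tags on 125 nt at chr22:18493922-18494047. MIR503 came next, with its 27 nt at chrX:133508063-133508090 on the minus strand.

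Of the 343 genes with a single cluster, 174 had only the 5 tags needed to be listed, the median was 5, and 12 held more than 30. SNORD2, a small nucleolar RNA gene, had 10 and 108 tags on 144 nt, between clusters of its host EIF4A2 that held 85 and 59 tags at distances of 101 and 74 nt. The host clusters were labelled as coding sequence and as coding sequence with 5′UTR, so the host itself was not bound only in introns. The class held 3 of the 18 small nucleolar RNA genes in the table. All 3 lay between clusters of a single other gene, and 32 of the 760 genes did in all. PPAN-P2RY11, a readthrough of neighbouring genes whose sequence it shares, had 3 and 76 tags on 70 nt, so its assignment is uncertain. Clusters under 30 nt made up 1.11% of the class (66 clusters) and 0.483% of the other intron clusters (433).

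Small RNA and noncoding genes were looked at after their values were seen. The class held 13 of the 27 microRNA genes in the table, beside 9.85% of all genes. The 13 had 2319 tags, of which MIR612 held 1322. A single cluster was all that 9 of the 13 had, and 27.3% of all genes with 1 listed cluster were in the class. MIR548W had 52 clusters over 211 kb and MIR5009 had 36 over 237 kb, so these symbols stand for stretches far longer than a hairpin. MIR424, the neighbour of MIR503, had 1 and 11 tags on 108 nt. MIR374A had 13 and 38 tags on 40 nt. By GENCODE type, 83 of the 702 matched genes (11.8%) were long noncoding RNAs and 581 (82.8%) were protein-coding, against 63 (1.87%) and 3298 (97.7%) of 3374 matched genes also bound elsewhere. How far the labels open to a noncoding transcript bear on this difference was not tested. Long noncoding genes of the class had a median of 3 intron clusters, against 23 in those also bound elsewhere.

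Member clusters ran along the strand of their gene. Of 5634 clusters whose gene had a strand in GENCODE, 5616 (99.7%) were on it, against 99.9% of the other intron clusters, and 2 genes of the class had clusters on the opposite strand. On the plus strand lay 41.3% of the member clusters against 54.5%, which became 53.4% when FHIT and SMYD3, both on the minus strand, were left out. Chromosome 3, which carries FHIT, held 19.1% of the member clusters against 8.42% of the other intron clusters.

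Gene lists were counted next against the 9.85% of all genes that were bound only in introns. Of the genes with an intron cluster 18.2% were, and the share on that base is given for most of the lists. Genes of common fragile sites are very long and tend to break when replication is slowed. All 14 in the table had an intron cluster, and 7 (50%) were in the class. These were FHIT, SDK1, IMMP2L, MACROD2, EXOC4, NBEA and WWOX. They held 1167 of its clusters and 9224 tags, but unequally. EXOC4, an exocyst subunit, had 27 clusters with 42 and 110 tags, while NBEA and WWOX had 2 clusters each. Cadherins and protocadherins had 10 of 16 in the class, or 83.3% of the 12 with an intron cluster, all with few tags and 124 in total. Of these, 6 were PCDHG genes, whose first exons share the same downstream exons and which overlap one another, so that their clusters are not separate evidence. CDH18, a classical cadherin of the nervous system, led them with 6 and 23 tags on 3 clusters, and PCDHGA2 had 5 and 20 on 4.

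Genes of neurons and of cell surfaces gave mixed counts. Neuronal and synaptic adhesion genes had 6 of 26 in the class, or 35.3% of the 17 with an intron cluster. The 6 held 1321 tags, of which SDK1 held 1235. CNTN5, a contactin, had 11 and 21 tags. Neurotransmitter receptor symbols had 4 of 9, or 57.1% of the 7 with an intron cluster. The 4 were led by GRIK1-AS2, an antisense locus and not a receptor, with 38 and 107 tags on 23 clusters. GRIK2, a kainate receptor, had 16 and 43 tags on 10 clusters. Ion channel symbols had 5 of 29, or 26.3% of the 19 with an intron cluster. Among the 5 was KCNQ1OT1, a noncoding RNA antisense to a channel gene. KCNH1, a potassium channel, had 17 and 70 tags on 9 clusters. Receptor tyrosine phosphatases had 0 of 9, of which 8 had an intron cluster. ABC transporters had 1 of 14, or 14.3% of the 7 with an intron cluster (ABCA13, 2 and 28 tags). Solute carriers had 9 of 136, or 13.2% of the 68 with an intron cluster, led by SLC25A53 with 49 tags and SLC25A12 with 11. ADAM and ADAMTS proteases had 2 of 12, or 25% of the 8 with an intron cluster. These were ADAMTS16 with 65 tags and the pseudogene ADAM1A with 37.

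Phosphodiesterase, motor, cilium and transcription factor lists ran from 1 of 23 genes to 6 of 24. Of genes with an intron cluster, the class held 14.3% of 7 phosphodiesterases, 25% of 24 motor genes and 31.6% of 19 cilium and centrosome genes. On that base it held 21.4% of 14 nuclear receptors and 10% of 10 forkhead, SOX, RUNX and TCF factors. Phosphodiesterases had 1 of 9 (PDE7A, 5 tags). Myosins, dyneins and kinesins had 6 of 34, led by KIF9-AS1, an antisense RNA, with 13 tags, and DNAH1 with 5. Cilium and centrosome genes had 6 of 24, among them TTC8 of the Bardet-Biedl complex with 25 tags and IFT74 of intraflagellar transport with 17. Nuclear receptors had 3 of 17. PPARD, a fatty acid sensor, had 51 and 172 tags on 27 clusters, NR6A1 had 38 and 109 on 20, and PPARG had 44 and 94 on 20. Forkhead, SOX, RUNX and TCF factors had 1 of 23, FOXP2, with 16 tags.

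Many genes of the next lists had no intron cluster at all, so the share of genes with an intron cluster, 18.2% in the whole table, is given as well. Cytosolic ribosomal protein symbols had 2 of 60, or 12.5% of the 16 with an intron cluster, and neither is a ribosomal protein, since RPS6KA2 is a kinase with 6 tags and RPL13AP20 a pseudogene with 5. Proteasome subunits had 2 of 36, or 14.3% of 14, PSMB7 with 12 tags and PSMA6 with 5. Ubiquitin-specific proteases had 0 of 36, of which 21 had an intron cluster. DNA repair genes had 2 of 30, or 8.70% of 23, FANCL and RAD51B, with 91 and 240 tags on 54 clusters.

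Lists taken by symbol alone varied more. Numbered zinc finger symbols had 40 of 227, or 32.8% of the 122 with an intron cluster, with 984 tags. Among the 40 were the antisense RNAs ZNF571-AS1 and ZNF790-AS1, the pseudogene ZNF37BP and the readthrough ZNF559-ZNF177. The 40 were led by ZNF407 with 99 and 284 tags on 61 clusters, followed by ZNF44 with 16 and 47. Genes with FAM symbols had 11 of 96, or 23.9% of the 46 with an intron cluster (FAM120C, 111 tags, and FAM115A, 86). Open reading frame symbols had 15 of 140, or 25.4% of the 59 with an intron cluster (C2orf27A, 385 tags, and C15orf41, 72). Uncharacterised LOC loci had 59 of 112, or 63.4% of the 93 with an intron cluster, with 377 clusters and 2953 tags. LOC729987 and LOC100506136 led these loci with 580 and 379 tags. Genes of the cassette exons that the study tied to RBM47 had 1 of 82, SYTL4, with 3 and 10 tags. That list was chosen by the study partly with these tags, so its count is not independent of them. None of the 4 MDA-MB-231 markers named above was in the class.

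**Figure D4:**
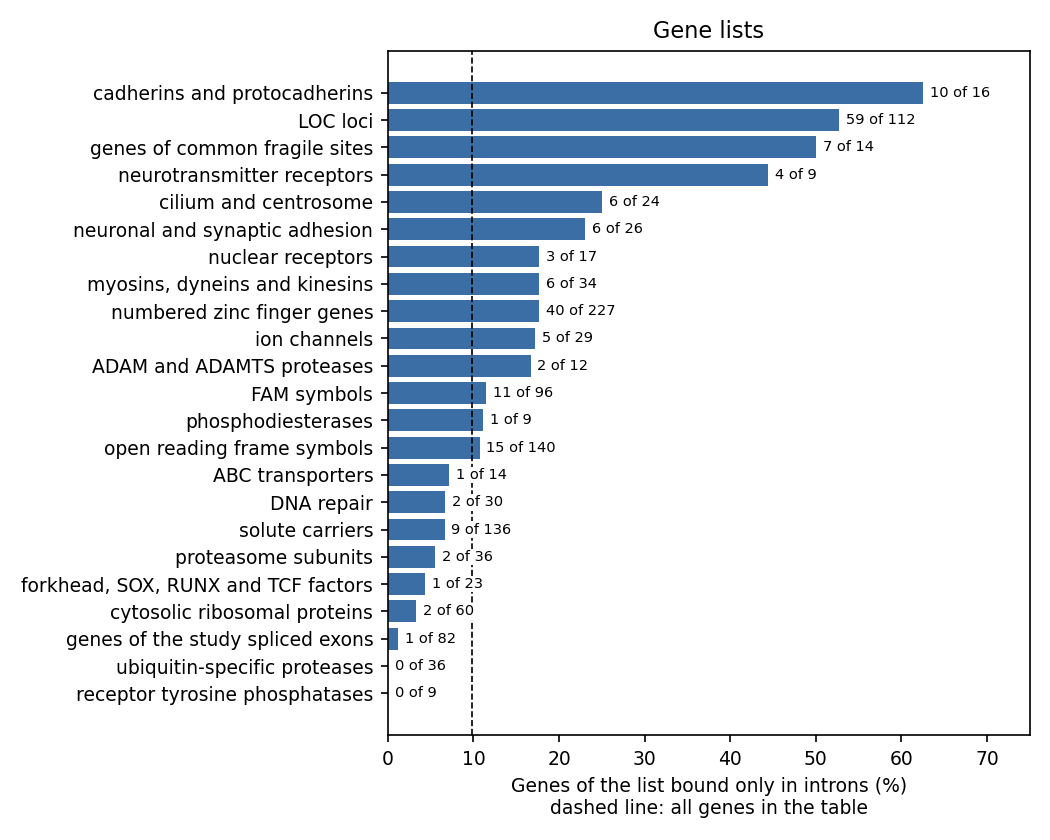
Share of each gene list bound only in introns (x axis, percent of the genes of the list in the table), with the counts beside the bars. The dashed line marks the 9.85% of all 7712 genes, and the bars run from 0 of 36 ubiquitin-specific proteases to 10 of 16 cadherins and protocadherins.

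The label rule did not use the split of tags between the replicates, but the listing minimum bounds it, since a cluster needed a tag in each. Over the whole class 25.6% of the tags came from replicate 1 (95% Wilson interval 25.2 to 26.0%, counting error only), against 24.0% (24.0 to 24.1%) for other intron clusters and 22.3% for all clusters. At matched depth the shares lay closer, with 30.4% against 30.2% in clusters of exactly 5 tags and 21.6% against 21.6% in those of at least 10. Each cluster was compared with the share of all clusters, 22.3%, by a two-sided exact binomial test, which sets these libraries against each other and not conditions. After Benjamini-Hochberg adjustment over the table, 3 of the 5968 clusters (0.0503%) were uneven, beside 0.0111% of all clusters. Higher in replicate 1 was 1 cluster, beside 0.00128% of all clusters, and higher in replicate 2 were 2, beside 0.00985%. At an unadjusted p under 0.05 there were 169 (2.83%), beside 3.04% of all clusters. With 28 clusters of 30 tags or more, most were too shallow for such a call.

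The 3 uneven clusters were among the 5 with most tags. At the MACROD2 cluster, 16 of 396 tags (4.04%, Wilson interval 2.50 to 6.46%) were from replicate 1, with an adjusted p of 2.46e-19 by the exact binomial test. The MIR503 cluster had 3.23% (1.26 to 8.0%) from replicate 1 and an adjusted p of 6.72e-05 by the same exact test. LINC00486 went the other way, with 35.1% (30.3 to 40.1%) and an adjusted p of 0.000449 by the exact test. The first pair were thus richer in replicate 2 and LINC00486 in replicate 1, but in a beta-binomial test that allows for extra spread LINC00486 was not called (adjusted p 1), while MACROD2 (2.16e-07) and MIR503 (0.0116) were. The MIR612 and RANBP1 clusters, with 21.3% and 14.5% of tags from replicate 1, were not called. Member clusters under 30 nt together had 14.5% of tags from replicate 1, and 24.0% without those of MACROD2 and MIR503. Other intron clusters under 30 nt had 26.0%.

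**Figure D5:**
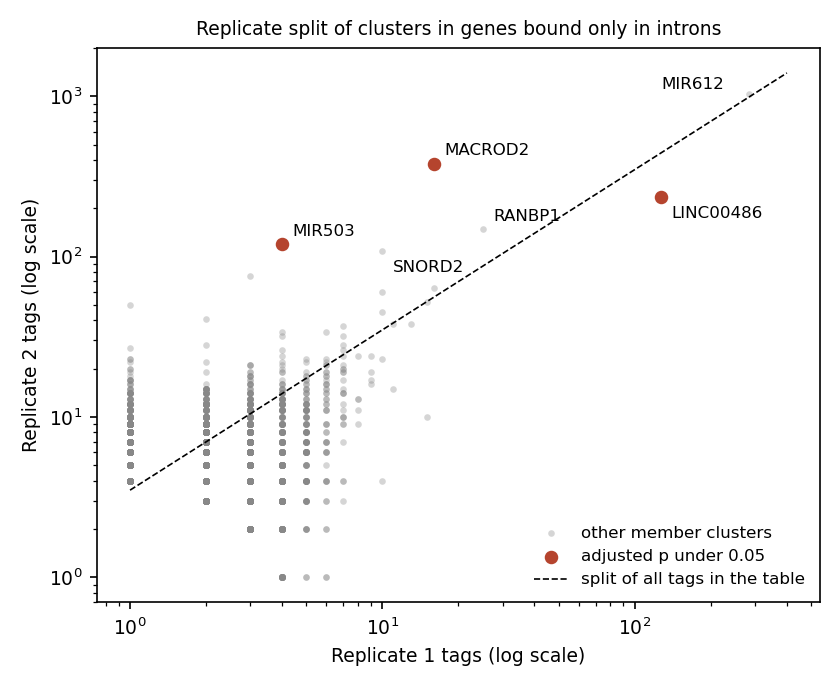
Replicate 1 tags (x axis, log scale) and replicate 2 tags (y axis, log scale) of the 5968 clusters in genes bound only in introns, 1 point per cluster. The dashed line is the split of all tags in the table, and the 3 red points, MACROD2 and MIR503 above the line and LINC00486 below it, had an adjusted p under 0.05.

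Summed per gene, 12 of the 760 genes (1.58%) were uneven by the exact binomial test after the same adjustment over all genes, beside 1.7% of all genes. Set against the share of all intron clusters instead, 13 were (1.71%), beside 6.19% of all genes. Of the 12 genes called against the share of all clusters, 22.3%, 8 were higher in replicate 1 (1.05% of the class), beside 0.765% of all genes. The other 4 were higher in replicate 2 (0.526%), beside 0.934%. FHIT had 25.6% of its tags from replicate 1 (adjusted p 6.64e-08, exact binomial), LINC00486 followed with 1.85e-05 and GMDS, at 27.8%, with 0.00806. Over the table, clusters of exactly 5 tags had 30.1% from replicate 1 and those of at least 10 tags 21.1%. The test takes no account of this, and the median cluster held 7 tags in FHIT and 6 in GMDS. The p-values of FHIT and GMDS therefore cannot tell a replicate difference from an effect of the listing minimum. MACROD2 (3.63e-20), MIR503 (2.96e-06) and PPAN-P2RY11 (0.00223, 3.80%) had the smallest adjusted p among those higher in replicate 2 in the same exact test. Against the share of all intron clusters, 24.1%, FHIT and GMDS had adjusted p of 0.0644 and 0.108 in the exact test and were no longer called. The other 4 were still called there. Across the 760 genes the replicate tags had a Spearman correlation of 0.809. Across genes also bound elsewhere it was 0.993, with the tags of all their clusters and not of introns alone. Both values are a description over genes of unequal depth.

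The label that separates the class from its neighbours could hang on a handful of tags. Just outside the rule were 285 genes with exactly 1 cluster that was not purely intronic, which was labelled 3′UTR in 159, coding sequence in 62 and unclassified exon in 28. They had a median of 3 intron clusters. LINC00478, a noncoding gene, had 300 intron clusters with 2493 tags and 1 further cluster of 6 tags. ARHGAP24 had 288 with 2268 tags and 1 cluster of 6 tags in the 3′UTR. FRMD5 had 179 with 1292 tags and 1 of 5 tags. By intron clusters these 3 genes would stand between SMYD3 and SDK1 inside the class.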

How the data were processed

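Flag-RBM47 HITS-CLIP was carried out in 2 replicates. Fragments were tailed, reverse transcribed with a degenerate barcoded primer and sequenced, and the authors collapsed mapped reads to unique tags and clustered them. The submitters' processing notes name Novoalign and hg18, and settings and versions were not given in the sources used here. Counts of tags were deposited for every cluster, by replicate and in total, with the authors' location labels. The authors' total fell below the sum of the replicates in 461 member clusters, and was used for ranks and medians. Barcodes limit amplification copies, and repeats or host genes can share reads.

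The members and lists were chosen with earlier results of these data known. The named genes were the 15 with most tags, the 5 with most clusters, the 5 largest clusters, the 5 single-cluster genes with most tags, 2 per list, the uneven clusters, the 3 most uneven genes in each direction, and 3 genes at the edge of the rule. Others (the microRNA genes, EXOC4, NBEA, WWOX, PPARG, KCNQ1OT1, the noncoding zinc finger symbols) and the replicate shares at matched depth were added after values were seen. Gene length, strand and type came from GENCODE 44 on GRCh37 (702 of 760 genes matched by symbol and chromosome) and names from RefSeq on GRCh38.p14 (749 by gene ID). No reference position was set against a deposited one (only lengths and nesting within a reference were read), and whether deposited coordinates count from 0 or 1 is not known. Analyses used Python 3.11.15, pandas 2.3.3 and scipy 1.17.1. The binomial test was tested on simulated data. A few listed genes and 1 list are not reported here. Alternatives changed the tag minimum, labels, weights, scaling, test and replicates. The listing minimum removes clusters absent from the smaller library, so column sums are not library depths. The exact binomial p-values cover counting error only, and of the split tests only the beta-binomial test allows for extra spread.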

Additional observations from a re-analysis of the deposited data

Results flagged for a closer look

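A signal outside the comparisons lay in 3719 intron clusters that carried no gene ID. They held 36988 tags, were in neither class, and can belong to genes that would pass or fail the rule.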

How the results depend on the processing

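The number of genes bound only in introns depends on which clusters are listed. With clusters of at least 10 tags it was 461 in place of 760, of which 228 were shared, and their clusters numbered 2819, which was 10.3% of the intron clusters in place of 6.24%. Weighted by tags that share was 4.81%. Keeping only listed clusters with at least 5 tags in replicate 1 gave 347 genes, 1396 clusters and 15.9%. The same minimum in replicate 2 gave 609 genes, 4438 clusters and 7.35%. The difference in log2 tags per cluster reversed to 0.058 among genes with 1 to 5 intron clusters, and was -0.29 to -0.20 with a replicate left out. The difference in mean log2 length was -0.125 over all intron clusters with a gene ID. It was -0.19 for clusters of at least 10 tags and -0.071 among genes with 1 to 5 intron clusters. Uneven clusters numbered 3 in the main test (0.0503%), beside 0.0111% of all clusters. Against the share of all intron clusters they numbered 6 (0.101%), beside 0.0527% of all clusters. In a beta-binomial test they numbered 2 (0.0335%), beside 0.00428%. The 10 genes with most tags held 47.4% of the tags of clusters with at least 10 tags, and 36.7 to 38.2% with a replicate left out. In all, 18 of the recomputed values stayed within their limits, 13 moved and 1 reversed. With the minimum of 10 tags, 532 of the 760 genes kept no cluster. Of the 461 genes, 233 had listed clusters with other labels, all below 10 tags. The causes of the other changes were not tested, beyond the fewer clusters that a tag minimum leaves. No paired analysis was possible because both samples belong to the same group.

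Most member clusters held 1 to 3 tags in replicate 1, so single clusters were measured coarsely there. Across member clusters, whose counts the listing minimum trims, the Spearman correlation between replicates was -0.0461. Intervals cover counting error only.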
